A study of Danio rerio with 12 samples.

Results

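The pronephric tubule genes described here are 9 zebrafish genes that mark the larval kidney tubule or carry out its transport, namely slc20a1a, lrp2a, cubn, trpm7, slc12a1, clcnk, slc12a3, cdh17 and pax2a. They were found by gene symbol among 32520 Ensembl genes. The symbols slc20a1 and pax2 each belonged to a pair of Ensembl genes, and the name table did not tell the a copy from the b copy, so both copies are given under the shared symbol with their Ensembl ID. The 9 genes thus correspond to 11 Ensembl genes, 7 with a symbol of their own and 4 in pairs. The symbol LRP2 was taken as lrp2a because lrp2b was named apart.

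RNA was sequenced from 12 pools of whole larvae at 120 hours post fertilization (hpf), 6 pools homozygous for an elmo3 knockout (elmo3-/-) and 6 wildtype pools (elmo3+/+), each of 30 larvae. The line was produced with CRISPR/Cas9 in the Tg(fli1:EGFP) background, in which endothelial cells express EGFP and which the study used throughout. Elmo3 is an adaptor of the engulfment and cell motility family that acts with Dock proteins on the small GTPase Rac. As the pools hold whole larvae, fewer cells of a type and less RNA per cell cannot be told apart, and a gene that is also expressed outside the kidney is measured with all its sites. Nothing in the labels says that the pools came from separate clutches, so p-values measure the spread between these pools only.

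The zebrafish pronephros is a pair of nephrons with a shared glomerulus, in which the filtrate runs through proximal convoluted, proximal straight, distal early and distal late segments to the cloaca. The proximal segments recover proteins by receptor-mediated endocytosis and take up phosphate, sugars and amino acids, while the distal segments recover salt through cation-chloride cotransporters. In freshwater fish the tubule also reabsorbs ions from a dilute urine, a task shared with ionocytes of the skin.

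The pools were alike in depth, with 16851426 to 17188263 counts in elmo3-/- and 16927275 to 17577126 counts in elmo3+/+. Relative to library sizes before scaling, 3 counts corresponded to 0.171 to 0.178 CPM. All other CPM values are the count of a gene relative to the library size after scaling between pools. The 13 mitochondrially encoded genes took 7.28 to 10.3% of the counts in elmo3-/- and 6.59 to 8.99% in elmo3+/+, with the highest elmo3+/+ share in replicate 1. Transcripts of elmo3 were rare in both genotypes, with a mean of 1.95 TPM (SD 0.546) in the 6 elmo3-/- pools against 1.995 TPM (SD 0.556) in the 6 elmo3+/+ pools, and its log2 fold change was 0.03 ± 0.19 (SE, adjusted p = 0.967), so its level is no check of the genotype labels.

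To see how strongly each tubule gene was expressed, levels were compared in TPM, a unit relative to library size that corrects for transcript length. Unlike CPM, TPM was not rescaled between pools. In elmo3+/+ larvae cdh17 had the highest mean level, at 35.3 ± 12.01 TPM, followed by slc20a1 ENSDARG00000010641 at 32.1 ± 2.73, pax2 ENSDARG00000028148 at 28.7 ± 2.25 and trpm7 at 14.5 ± 0.827 TPM (SD, n = 6 each). The other 7 Ensembl genes averaged between 1.25 TPM for clcnk and 4.45 TPM for slc20a1 ENSDARG00000020114 in elmo3+/+. Of the 10 pairs of neighbours in this order, 3 had ranges that did not overlap in elmo3+/+, namely pax2 ENSDARG00000028148 above trpm7, trpm7 above slc20a1 ENSDARG00000020114, and slc12a3 above lrp2a. All other neighbours overlapped. The last of the 3 was a near tie, with the lowest slc12a3 pool at 2.920 TPM and the highest lrp2a pool at 2.911 TPM. In elmo3-/- slc12a3 was above lrp2a in 5 of 6 pools. The cadherin cdh17 exceeded slc20a1 ENSDARG00000010641 in 1 of 6 elmo3-/- pools and in 4 of 6 elmo3+/+ pools.

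**Figure D1:**
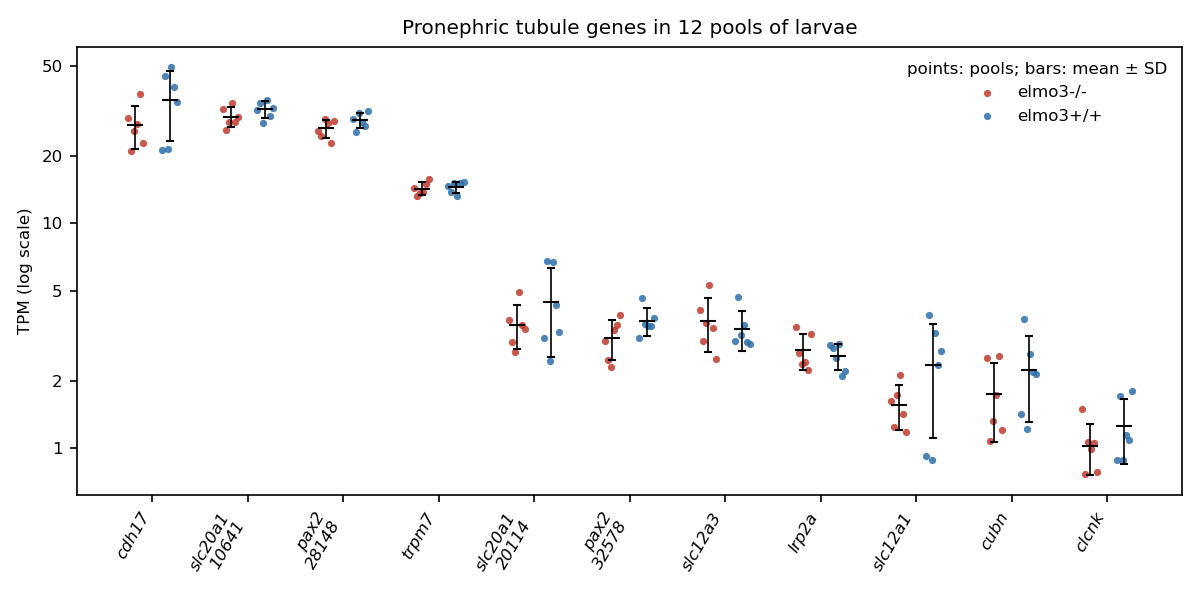
TPM (log scale) of the 11 Ensembl genes in each pool of 30 larvae, elmo3-/- in red and elmo3+/+ in blue, with mean and SD as bars and the last 5 digits of the Ensembl ID under shared symbols. Levels run between 0.765 TPM for clcnk in an elmo3-/- pool and 49.4 TPM for cdh17 in an elmo3+/+ pool, and the genotypes overlap for every gene.

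To test whether the tubule genes depend on the elmo3 genotype, the estimated counts were compared with the quasi-likelihood test of edgeR over all 21127 genes that passed a filter on low counts. All 11 Ensembl genes passed this filter, and none passed the adjusted threshold of 0.05, with adjusted p-values between 0.537 and 0.988. Over all genes the same test called 21 genes, or 0.0994%. At an unadjusted p under 0.05 there were 0 of the 11, beside 9.52% of all genes in either direction and 4.95% of all genes lower in elmo3-/-. DESeq2 also called 0 of the 11 with 0 at an unadjusted p under 0.05, and limma on log2(TPM + 1) called 0 and had 0 at an unadjusted p under 0.05. The fitted log2 fold changes, elmo3-/- over elmo3+/+, lay below 0 for 6 of 11 genes, against 48.9% of all genes tested. Their median was -0.13, that of all genes 0.00, and they ranged between -0.50 for slc12a1 and 0.17 for slc12a3. In no tubule gene were the CPM of the genotypes free of overlap, which was so for 0.431% of all genes.

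**Figure D2:**
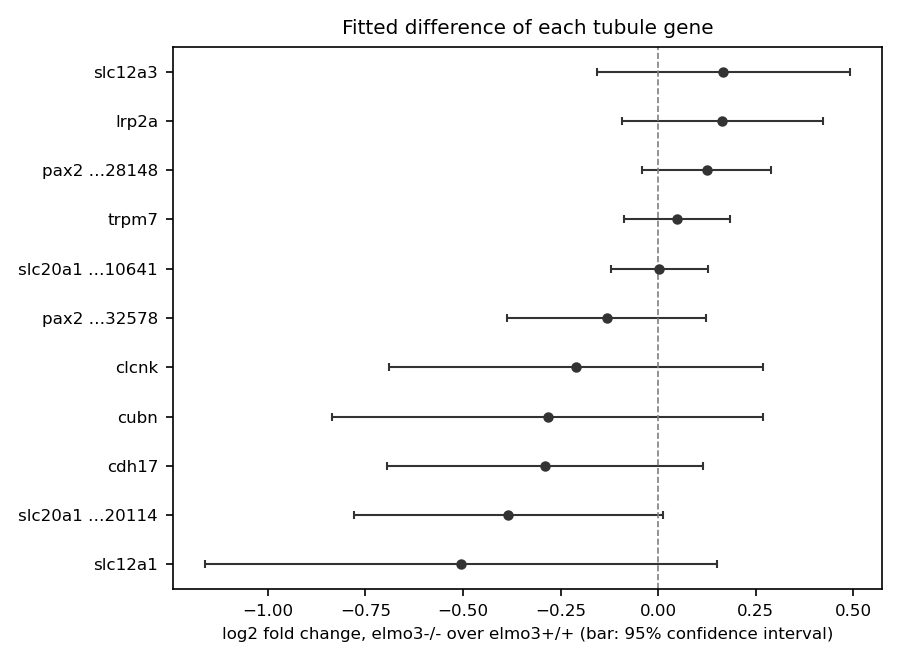
Fitted log2 fold change of each tubule gene (elmo3-/- over elmo3+/+) with its 95% confidence interval from edgeR. The intervals of all 11 genes include 0, and that of slc12a1, from -1.16 to 0.15, is the widest.

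Among the proximal genes, slc20a1 encodes a sodium-dependent phosphate transporter, and its zebrafish a copy marks the proximal convoluted tubule. The more abundant copy, ENSDARG00000010641, lay between 26.0 and 34.1 TPM (median 29.1) in elmo3-/- pools and between 28.04 and 35.5 TPM (median 32.3) in elmo3+/+ pools. Its pools were close together in both genotypes, with coefficients of variation of 9.90% in elmo3-/- and 8.50% in elmo3+/+. The fold change was 0.00 ± 0.06 (log2, SE, adjusted p = 0.988), and its 95% interval reached from a ratio of 0.920 to 1.09. The sign of this value, which is close to 0, turned under total count scaling, where it was -0.05. The second copy, ENSDARG00000020114, lay between 2.68 and 4.95 TPM (median 3.47) in elmo3-/- and between 2.44 and 6.77 TPM (median 3.82) in elmo3+/+. In CPM all 6 elmo3-/- pools were below the elmo3+/+ median, but inside the elmo3+/+ range. In TPM elmo3-/- replicate 4, at 4.95 TPM, was above the elmo3+/+ median of 3.82 TPM. The elmo3+/+ range was wide, with 6.77 and 6.76 TPM in replicates 2 and 4 and 3.09 and 2.44 TPM in replicates 1 and 3. The log2 fold change was -0.38 ± 0.19 on counts (SE, adjusted p = 0.537), and -0.21 with limma on log2(TPM + 1).

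Megalin, encoded by lrp2a, and cubilin, encoded by cubn, are the large receptors that bind filtered proteins together at the apical membrane of the proximal tubule. The level of lrp2a lay between 2.22 and 3.45 TPM (median 2.54) in elmo3-/- and between 2.10 and 2.91 TPM (median 2.65) in elmo3+/+. The genotypes overlapped, with 2 elmo3-/- pools above the highest elmo3+/+ pool in TPM and 3 in CPM, and the log2 fold change was 0.16 ± 0.12 (SE, adjusted p = 0.663). For cubn, the pools spread more widely, between 1.07 and 2.58 TPM (median 1.52) in elmo3-/- and between 1.22 and 3.77 TPM (median 2.16) in elmo3+/+. Replicates 1 and 5 of elmo3-/- and replicate 2 of elmo3+/+ were the high pools of their genotypes. The log2 fold change of cubn was -0.28 ± 0.26 (SE, adjusted p = 0.731), with an interval of the ratio between 0.561 and 1.20. A level in elmo3-/- well below or somewhat above that in elmo3+/+ lies within this interval. The channel kinase trpm7, which conducts magnesium and calcium and marks the proximal straight tubule in zebrafish, was among the least variable tubule genes. It lay between 13.2 and 15.8 TPM (median 14.1) in elmo3-/- and between 13.2 and 15.2 TPM (median 14.8) in elmo3+/+, with a log2 fold change of 0.05 ± 0.06 (SE, adjusted p = 0.825) and an interval of the ratio between 0.942 and 1.13. Total count scaling turned the sign of this small value, to -0.0021.

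The distal genes recover salt. NKCC2, the sodium-potassium-chloride cotransporter encoded by slc12a1, marks the distal early segment and is the target of loop diuretics. In elmo3-/- pools slc12a1 was at 1.63, 1.25, 1.73, 2.12, 1.42 and 1.18 TPM in replicates 1 to 6, and in elmo3+/+ pools at 0.920, 3.92, 0.888, 3.26, 2.35 and 2.71 TPM. The elmo3+/+ pools fell into 2 low pools, replicates 1 and 3, and 4 high pools, and all 6 elmo3-/- pools lay between them. These levels rest on 31 to 57 counts per elmo3-/- pool and 24 to 108 counts per elmo3+/+ pool. The log2 fold change of slc12a1, -0.50 ± 0.31 (SE, adjusted p = 0.605), was the lowest of the tubule genes and had the widest interval, from a ratio of 0.447 to 1.11.

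NCC, the thiazide-sensitive sodium-chloride cotransporter encoded by slc12a3, marks the distal late segment. Its level lay between 2.49 and 5.34 TPM (median 3.51) in elmo3-/- and between 2.92 and 4.72 TPM (median 3.10) in elmo3+/+. Replicate 4 of elmo3-/- and replicate 2 of elmo3+/+ were the high pools. The log2 fold change was 0.17 ± 0.15 (SE, adjusted p = 0.731). The chloride channel gene clcnk, whose product lets chloride leave distal tubule cells on the blood side, was the lowest of the tubule genes, between 0.765 and 1.49 TPM (median 1.02) in elmo3-/- and between 0.884 and 1.80 TPM (median 1.11) in elmo3+/+. It was covered by 24 to 48 counts per elmo3-/- pool and 28 to 58 per elmo3+/+ pool. Its log2 fold change was -0.21 ± 0.23 (SE, adjusted p = 0.772).

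The cadherin cdh17 marks the tubule along its whole length in zebrafish, and in mammals it is known as the liver-intestine cadherin. Its level was 29.5, 21.0, 25.7, 27.7, 37.7 and 22.7 TPM in elmo3-/- replicates 1 to 6 and 21.1, 45.4, 21.3, 49.4, 40.3 and 34.5 TPM in elmo3+/+ replicates 1 to 6. As for slc12a1, replicates 1 and 3 were the low pools of elmo3+/+, here at the level of the lowest elmo3-/- pools, while the other 4 elmo3+/+ pools exceeded 5 of 6 elmo3-/- pools. The log2 fold change was -0.29 ± 0.19 (SE, adjusted p = 0.619), with an interval of the ratio from 0.618 to 1.08.

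The transcription factor gene pax2 acts early in the nephron, in forming the intermediate mesoderm and the tubule. Its direction depended on the unit. The abundant copy, ENSDARG00000028148, lay between 22.9 and 29.1 TPM (median 26.8) in elmo3-/- and between 25.5 and 31.5 TPM (median 28.5) in elmo3+/+, but between 46.3 and 55.4 CPM (median 50.9) in elmo3-/- and between 39.7 and 53.1 CPM (median 46.4) in elmo3+/+. The log2 fold change was 0.12 ± 0.08 on counts (SE, adjusted p = 0.608), and -0.12 with limma on log2(TPM + 1). The counts behind 1 TPM unit follow the length of the transcripts to which reads were assigned, and for this copy they were 1.13-fold higher in elmo3-/- (log2 difference 0.17, 95% interval 0.08 to 0.27, limma, unadjusted p = 0.00254, adjusted p = 0.332). Relative to the median gene of each pool they lay between 1.04 and 1.24 in elmo3-/- and between 0.961 and 1.08 in elmo3+/+, so the genotypes overlapped. It was the only tubule gene with an unadjusted p under 0.05 for this measure, which was so for 4.33% of 19438 genes, and the adjusted threshold was passed by 0.0154% of genes and 0 of the 11 tubule genes. The rarer copy, ENSDARG00000032578, lay between 2.31 and 3.93 TPM (median 3.17) in elmo3-/- and between 3.09 and 4.65 TPM (median 3.53) in elmo3+/+, with a log2 fold change of -0.13 ± 0.12 (SE, adjusted p = 0.730). Midbrain-hindbrain and thyroid markers, genes of other sites of pax2a, had fitted log2 fold changes above 0 for 4 of 5 genes, all 4 midbrain-hindbrain genes. The thyroid marker tg had -0.47 ± 0.34 (SE, edgeR, adjusted p = 0.654). It averaged 0.141 TPM in elmo3-/- and 0.207 TPM in elmo3+/+, so the sum of the 5 markers says little about the thyroid. Summed, these markers were at 36.3 to 42.6 TPM in elmo3-/- and 34.3 to 46.2 TPM in elmo3+/+. Their part in the pax2 levels was not tested.

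How many tubule genes had an unadjusted p under 0.05 depended on which pool was left out. Without elmo3+/+ replicate 1, 4 of 11 tubule genes had an unadjusted p under 0.05, 3 of them lower in elmo3-/-. In that fit this was so for 14.5% of all genes in either direction, and the lowest adjusted p of a tubule gene was 0.271. Without elmo3+/+ replicate 3 the count was 3 of 11, all lower in elmo3-/-, against 13.6% of all genes in either direction. These 3 were slc12a1, cdh17 and the rarer slc20a1 copy in either case. The fourth, without elmo3+/+ replicate 1, was pax2 ENSDARG00000028148. For slc12a1, cdh17 and the rarer slc20a1 copy, replicates 1 and 3 were the lowest elmo3+/+ pools, so leaving out either raises the elmo3+/+ mean. Leaving out elmo3-/- replicate 5 gave 1 of 11, against 10.6% of all genes, and leaving out any other pool gave 0 of 11, against 5.72 to 11.9% of all genes. In none of the 12 fits with a pool left out did a tubule gene pass the adjusted threshold.

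Ratios within a pool compare genes, measured over the whole larva, independently of depth. The log2 ratio of slc12a1 to slc12a3, distal early over distal late, averaged -1.22 ± 0.127 in elmo3-/- pools, against -0.73 ± 0.816 in elmo3+/+ pools (SD, n = 6 each). The elmo3-/- pools were closely grouped, between -1.34 and -1.05. In elmo3+/+ replicates 1 and 3 had -1.71 and -1.85, below every elmo3-/- pool, and the other 4 pools lay between -0.33 and -0.11, above every elmo3-/- pool. In TPM slc12a3 was higher than slc12a1 in 12 of 12 pools. The means differed by -0.49, within the spread of the pools (two-sided exact permutation test, p = 0.175, adjusted over 5 ratios 0.404). The smallest p this test can give is 0.0022.

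None of the other 4 ratios passed the test either. The log2 ratio of lrp2a to cubn was 0.72 ± 0.61 in elmo3-/- pools, against 0.29 ± 0.604 in elmo3+/+ pools (exact permutation p = 0.242, adjusted 0.404), so that the megalin transcript was the more abundant in 5 of 6 elmo3-/- pools and 4 of 6 elmo3+/+ pools. That of slc12a3 to clcnk was 1.83 ± 0.335 in elmo3-/- pools, against 1.48 ± 0.412 in elmo3+/+ pools (exact permutation p = 0.130, adjusted 0.404). For slc12a1 to clcnk it was 0.61 ± 0.324 in elmo3-/- pools, against 0.74 ± 0.629 in elmo3+/+ pools (exact permutation p = 0.652, adjusted 0.652). The ratio of slc20a1, both copies summed, to cdh17 was 0.30 ± 0.291 in elmo3-/- pools, against 0.12 ± 0.41 in elmo3+/+ pools (exact permutation p = 0.398, adjusted 0.498, SD and n = 6 each throughout).

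**Figure D3:**
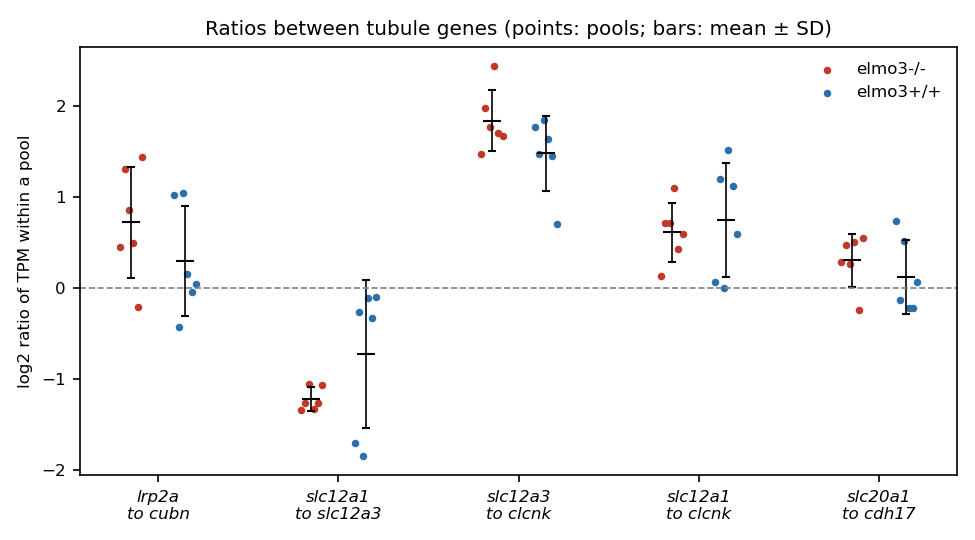
Log2 ratio of TPM between tubule genes within each pool, elmo3-/- in red to the left and elmo3+/+ in blue to the right, with mean and SD as bars. For slc12a1 to slc12a3 the elmo3-/- pools lie between -1.34 and -1.05, and the elmo3+/+ pools lie on both sides of them.

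Whether tubule genes varied together from pool to pool was examined on log2 CPM with each genotype's mean removed, over 12 pools and 36 pairs of genes, with copies summed. The closest pair, and the 1 pair past the adjusted threshold, was cubn and cdh17, with Pearson's r = 0.87 and Spearman's rho = 0.90 (permutation within genotypes, adjusted p = 0.00756 for r and 0.0184 for rho). Without the 2 pools farthest from the median of cubn, r was 0.82. The relation had the same size within each genotype, with r = 0.90 in elmo3-/- and 0.899 in elmo3+/+. The elmo3+/+ r is given without a test, as replicates 1 and 3 were the low elmo3+/+ pools for both genes. These pools also enter the r over 12 pools. In elmo3-/- alone the exact permutation p was 0.0139 for r and 0.0333 for rho (rho = 0.89, n = 6). Adjusted over 36 pairs these were 0.25 and 0.42, but with 6 pools no pair could pass that adjustment alone, so it decides nothing. For cubn and pax2 r was -0.81 and rho -0.78, which did not pass (permutation, adjusted p = 0.0571 for r and 0.0886 for rho, r = -0.78 without 2 pools).

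For slc12a1 no pooled coefficient is given, as its elmo3+/+ pools fell into 2 low and 4 high pools. Within elmo3-/- the r of slc12a1 and cdh17 was 0.29 with rho = 0.20 (exact permutation p = 0.571 and 0.714, n = 6), which did not pass the test. Within elmo3+/+ r was 0.96, given without a test, as replicates 1 and 3 were the low pools for both genes. Within elmo3-/- slc12a1 and slc12a3 had r = 0.93 and rho = 0.94 (exact permutation p = 0.00833 and 0.0167, n = 6). Adjusted over 36 pairs these were 0.25 and 0.42, an adjustment that no pair could pass alone with 6 pools. Over the 36 pairs the median r was 0.03 and 20 were above 0, between -0.81 and 0.87.

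**Figure D4:**
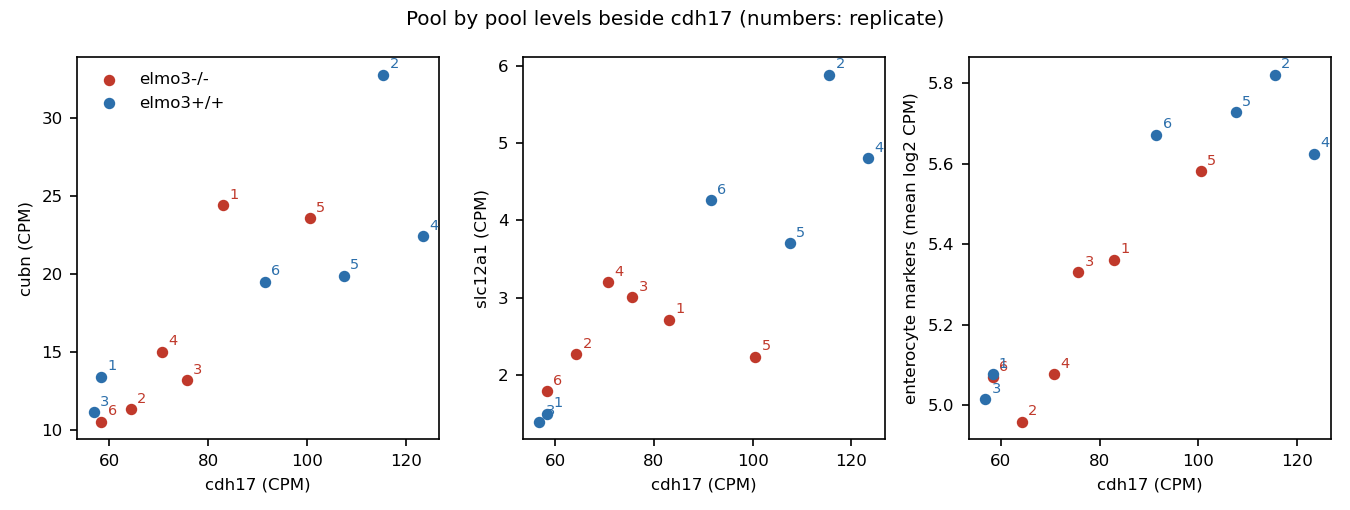
Levels in each pool beside cdh17 (CPM, horizontal axes) of cubn and slc12a1 (CPM) and of the mean log2 CPM of 8 enterocyte markers, elmo3-/- in red and elmo3+/+ in blue, numbered by replicate. Pools with more cdh17 have more cubn (r = 0.87 with genotype means removed), and elmo3+/+ replicates 1 and 3 lie near the low end of all panels.

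Cubilin and cdh17 are also known from the intestine, where lysosome-rich enterocytes of larval fish take up proteins with cubilin. The enterocyte markers used here include lysosome-rich enterocytes but are not limited to them. Over the 12 pools the mean log2 CPM of 8 enterocyte markers followed cdh17 with r = 0.94 and rho = 0.91 (permutation, adjusted p = 0.0151 and 0.0301 over 36 relations, r = 0.86 without 2 pools) and cubn with r = 0.86 and rho = 0.87 (permutation, adjusted p = 0.0151 and 0.0301, r = 0.80 without 2 pools). The coefficients over 12 pools include elmo3+/+ replicates 1 and 3, the low elmo3+/+ pools for cdh17, cubn and the enterocyte markers. These 2 replicates, farthest from the median of the marker mean with genotype means removed, were the 2 pools left out. Within elmo3-/- alone r was 0.92 for cdh17 (rho = 0.94, exact permutation p = 0.0111 and 0.0167, adjusted 0.40 and 0.60) and 0.81 for cubn (rho = 0.83, exact permutation p = 0.0639 and 0.0583, adjusted 0.655 and 0.764, n = 6). With 6 pools no relation within elmo3-/- could pass the adjustment over 36 relations alone. Fitted log2 fold changes were below 0 for 7 of 8 enterocyte markers, beside 48.9% of all genes tested, and 0 of the 8 passed the adjusted threshold. They ran from -0.68 for fabp2 to 0.09 for lgmn. Their summed level was 663 to 1182 TPM in elmo3-/- and 806 to 1522 TPM in elmo3+/+. The 8 ionocyte markers had 7 fold changes below 0, and 0 of the 8 passed the adjusted threshold. Their summed level was 19.3 to 42.7 TPM in elmo3-/- and 25.5 to 54.8 TPM in elmo3+/+. Their mean log2 CPM also varied with cdh17 (r = 0.80, rho = 0.76, permutation, adjusted p = 0.0547 and 0.0775, r = 0.68 without 2 pools) and cubn (r = 0.69, rho = 0.65, permutation, adjusted p = 0.105 and 0.184, r = 0.66 without 2 pools), short of the adjusted threshold. For the ionocyte markers too, elmo3+/+ replicates 1 and 3 were the lowest elmo3+/+ pools. Within elmo3-/- alone r with the ionocyte markers was 0.61 for cdh17 and 0.48 for cubn (exact permutation p = 0.194 and 0.3125, n = 6). For slc12a1 within elmo3-/- r with the ionocyte markers was 0.70 and rho 0.66 (exact permutation p = 0.124 and 0.175, adjusted 0.655 and 0.764, n = 6). With the enterocyte, podocyte and midbrain-hindbrain and thyroid markers its r within elmo3-/- was 0.13, 0.26 and 0.51 (exact permutation p = 0.822, 0.579 and 0.274). Over 12 pools r with the podocyte markers was 0.31 for cdh17 and 0.27 for cubn (permutation, adjusted p = 0.596 and 0.619). With the midbrain-hindbrain and thyroid markers it was 0.11 and 0.04 (permutation, adjusted p = 0.790 and 0.917). Whether the relations to the enterocyte and ionocyte lists differ was not tested. For podocytes, the filtering cells of the glomerulus, 5 of 7 markers were below 0, and 0 of the 7 passed the adjusted threshold. Their summed level was 65.2 to 79.9 TPM in elmo3-/- and 73.3 to 93.7 TPM in elmo3+/+. No marker of these lists was at 0 in all pools. Their part in the levels of the tubule genes was not tested.

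The wider pathways were read from 3 lists of further genes, for proximal transport, for the distal tubule and for nephron patterning. The distal list also holds genes of the corpuscle of Stannius and regulators of salt cotransport such as WNK kinases. Of the 70 genes, 69 passed the filter. With edgeR 0 of these 69 passed the adjusted threshold, and 10 had an unadjusted p under 0.05, 5 in each direction, beside 0.0994% and 9.52% of all genes. Among 23 genes of the proximal list, 16 had a log2 fold change below 0, beside 48.9% of all genes tested. The median was -0.14, and the values ran from -0.82 to 0.25. These genes too were measured with all their sites in the larva, and the part of the kidney in these values was not tested. The 3 with the smallest p-values were slc3a1, the slc6a19 copy ENSDARG00000056719 and slc20a2. The gene slc3a1, for a subunit of the cystine and dibasic amino acid transporter, was at 9.18 TPM in elmo3-/- and 8.13 TPM in elmo3+/+ (log2 fold change 0.25 ± 0.08, adjusted p = 0.489). The slc6a19 copy, a neutral amino acid transporter gene, was at 3.64 TPM in elmo3-/- and 6.70 TPM in elmo3+/+ (-0.80 ± 0.29, adjusted p = 0.499). In elmo3+/+ it spread between 2.56 and 11.1 TPM. The slc6a19 copies ENSDARG00000018621 and ENSDARG00000091560 had -0.59 ± 0.33 and -0.64 ± 0.41 (adjusted p = 0.587 and 0.615). The phosphate transporter gene slc20a2 was at 14.6 TPM in elmo3-/- and 13.98 TPM in elmo3+/+ (0.13 ± 0.06, adjusted p = 0.499, SE throughout).

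Of the distal list, which is not limited to genes of the tubule, 21 genes were tested. A log2 fold change below 0 was found for 12 of these, beside 48.9% of all genes tested, and the median was -0.06. The gene with the smallest p was stk39, which encodes the kinase SPAK that phosphorylates NKCC2 and NCC downstream of WNK kinases, at 4.01 TPM in elmo3-/- and 2.69 TPM in elmo3+/+ (log2 fold change 0.65 ± 0.20, SE, unadjusted p = 0.0054, adjusted p = 0.489). The WNK kinase gene wnk1b was at 31.6 TPM in elmo3-/- and 28.4 TPM in elmo3+/+ (0.24 ± 0.09, SE, adjusted p = 0.499). The sodium pump subunit gene atp1a1a.4 was at 52.2 TPM in elmo3-/- and 72.8 TPM in elmo3+/+ (-0.43 ± 0.18, SE, adjusted p = 0.499). Of 25 nephron factors 11 were below 0, with a median of 0.03. Those with the smallest p-values were hnf4a, a factor of proximal tubule, liver and gut (-0.50 ± 0.21, adjusted p = 0.499), the Notch ligand gene jag2b (0.16 ± 0.07, adjusted p = 0.504) and foxj1b, a factor of motile cilia (-0.35 ± 0.16, adjusted p = 0.521, SE throughout).

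**Figure D5:**
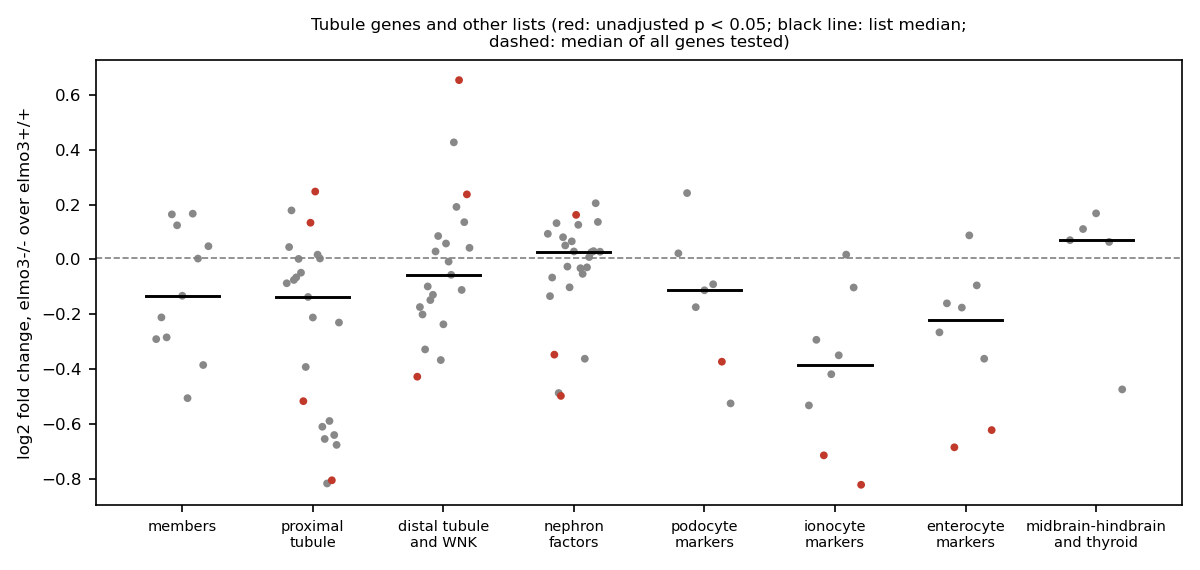
Log2 fold change (elmo3-/- over elmo3+/+) of the tubule genes, of 3 lists of related kidney genes and of 4 marker lists, 1 point per gene, red where the unadjusted p is under 0.05. Black lines give list medians, -0.13 for the tubule genes and -0.14, -0.06 and 0.03 for proximal, distal and nephron factor genes, and the dashed line gives the median of all genes, 0.00.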

How the data were processed

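For each of the 12 pools the authors deposited estimated counts per gene (expected counts) and TPM values. The submitters' processing notes name Trim Galore 0.6.4, kallisto 0.4.6 and the build GRCz11. Of the deposited estimated counts 63.0% were whole, and all were rounded before count models were fitted. Pools were grouped by title. Symbols came from a table of Ensembl IDs in which 29201 of 32520 IDs had one. Counts were compared with edgeR 4.0.16 (R 4.3.3; quasi-likelihood test, trimmed mean of M-values scaling, filterByExpr, genotype as the only term), with Benjamini-Hochberg adjustment across every gene tested. Standard errors of the edgeR fold changes were derived as the absolute log2 fold change over the root of the F statistic. Their 95% confidence intervals use these errors and the degrees of freedom of the fit. Ratios were formed on TPM with no offset. Correlations used log2(CPM + 0.1), 100000 resamples within genotypes, or all orders of 6 pools. Counts per TPM unit were compared with limma 3.58.1 over genes with at least 10 counts in every pool, centred on each pool's median. This test, the correlations with marker lists and those within elmo3-/- were chosen after seeing the data. Intervals and floors cover counting error and pool spread only.

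The members and lists were chosen with earlier results of these data known. Named were elmo3, the 9 tubule genes and, in each of the 3 kidney lists, genes past the adjusted threshold and the 3 with the smallest p. Alternatives were DESeq2 1.42.0, scaling by upper quartile or total count, no filter, a replicate block, limma on log2(TPM + 1) and log2(TPM + 0.1), and leaving out each pool. For ratios they were estimated counts, TPM + 0.1, a sign-flip test by replicate number, and leaving out each pool. Scripts were tested on simulated data. No pair of pools held identical counts. Sequences of the genes are not used here, and 1 further tubule gene is not reported here.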

Additional observations from a re-analysis of the deposited data

Results flagged for a closer look

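Of 32 series of 6 pools of 1 genotype examined (11 Ensembl tubule genes and 5 ratios), 3 held a pool far from the other 5 by Dixon's criterion, and chance alone gives about 1 in 20. The slc12a3 level of elmo3+/+ replicate 2 was 4.72 TPM, against 3.54 TPM in the next pool. The log2 ratio of slc12a3 to clcnk in elmo3+/+ replicate 6 was 0.70, with the next pool at 1.45. The log2 ratio of slc20a1 to cdh17 in elmo3-/- replicate 5 was -0.24, with the next pool at 0.26. This was the elmo3-/- pool with the most cdh17.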

How the results depend on the processing

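Under 19 alternatives no tubule gene and no gene of the 3 kidney lists passed the adjusted threshold, and no ratio did under 15. Of 209 fold changes of tubule genes under these alternatives, 195 kept their direction and 14 reversed. For slc20a1 ENSDARG00000010641 the log2 fold change was -0.0027 under upper-quartile scaling, -0.0515 under total count scaling, -0.11 with limma on log2(TPM + 1) and -0.11 on log2(TPM + 0.1), and between -0.0196 and 0.0274 with a pool left out. For trpm7 it was -0.0021 under total count scaling, -0.0207 with limma on log2(TPM + 1) and -0.02197 on log2(TPM + 0.1), and for pax2 ENSDARG00000028148 -0.12 on both TPM scales. Total count scaling moved the median of all genes by -0.05, and the TPM scales by -0.07 and -0.08. The difference of the slc12a1 to clcnk ratio lay between -0.28 and 0.0179 with a pool left out, and was 0.0179 without elmo3+/+ replicate 4. The count of all genes called was 21, and 49 with DESeq2. Tubule genes at an unadjusted p under 0.05 numbered 0, but 1 under total count scaling (9.61% of all genes), and 0 to 4 with a pool left out. The causes were not tested.

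With the replicate number as a replicate block this count was 1 (10.6% of all genes), and 17 genes were called in all. The labels give same-numbered pools no more than a shared number, and whether they also share a clutch or batch cannot be told. Their deviations correlated by 0.1095 on average, between -0.289 and 0.392, with 3 of 6 pairs over 0.1 and 5 of 12 pools closest to their own number. Depth limits slc12a1 and clcnk most, with as few as 24 counts in a pool.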
